A study of Rattus norvegicus with 8 samples.

Results

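Troponin and tropomyosin form the calcium switch of the striated muscle thin filament. The subject here is the transcripts of 10 rat genes of that switch: Tnnt1, Tnnt2, Tnnt3, Tnni1, Tnni2, Tnnc1, Tnnc2, Tpm1, Tpm2 and Tpm3. Their members were the probe sets whose only gene symbol in the platform annotation was 1 of these genes. There were 31 such probe sets among the 31042 tested, and the 10 genes stood among 14217 named genes. Tpm3 had 12 probe sets, Tpm1 had 7, Tnnt2, Tnnt3, Tnni1 and Tpm2 had 2 each, and Tnnt1, Tnni2, Tnnc1 and Tnnc2 had 1 each.

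The tissue was epitrochlearis, a thin forelimb muscle made mostly of fast-twitch fibres, and each rat gave 1 Affymetrix 3' array. The WPH group (n = 4) was gavaged after exercise with carbohydrate plus whey protein hydrolysate, which is milk whey protein cut into peptides by enzymes. The AAM group (n = 4) was gavaged at the same point with carbohydrate plus an amino acid mixture, and the series asks whether the hydrolysate acts differently from amino acids of the same composition. All 8 animals were male Sprague-Dawley rats aged 6 weeks that shared 3 days of swimming practice, 5 g of a restricted diet on the day before, a swim of 2 h and then 44 kJ of test meal (15% of daily energy). No rat went without the swim or without a meal, so an effect of exercise or of feeding as such is not measured. Rats swam 4 to a barrel. The sources used here name neither the barrel nor the array batch nor the sampling time, so a barrel or batch that differed between the meals cannot be told apart from the meals.

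In resting muscle, troponin I holds the filament inhibited, troponin T anchors the complex to tropomyosin, and tropomyosin covers the myosin binding sites on actin. Calcium binding to troponin C moves tropomyosin aside. Slow and fast fibres build this switch from different genes. Tnnt1, Tnni1 and Tnnc1 encode the slow troponins, and Tnnt3, Tnni2 and Tnnc2 the fast ones. Tnnc1 is also the troponin C of the heart, and Tnnt2 is the troponin T of the heart and of developing muscle. Tpm3 yields slow tropomyosin as well as short cytoskeletal forms found in most cells, Tpm1 yields the alpha tropomyosin of fast fibres and of the heart, and Tpm2 yields the beta form. Tnnt1, Tnni1, Tnnc1 and Tpm3 are grouped below as slow isoforms and Tnnt3, Tnni2, Tnnc2 and Tpm1 as fast isoforms. Tnnt2 and Tpm2 were placed in neither group.

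The promoters of the slow troponins Tnnt1 and Tnni1, which varied together, and of the fast troponins Tnni2 and Tnnc2, whose pairs did not pass, are shown so that their proximal sequence can be compared. Each runs 5′ to 3′ on the strand of its gene, from 250 bases before to 50 bases after the annotated start, and comes from RefSeq on build GRCr8. Capitals mark matches on either strand to TATAAA or CACCTG, so that CAGGTG and TTTATA are matches on the opposite strand. The windows are chr1:78348785-78349084 on the plus strand for Tnnt1, chr13:49781279-49781578 on the plus strand for Tnni1, chr1:207024240-207024539 on the plus strand for Tnni2 and chr3:173935290-173935589 on the minus strand for Tnnc2.
Tnnt1: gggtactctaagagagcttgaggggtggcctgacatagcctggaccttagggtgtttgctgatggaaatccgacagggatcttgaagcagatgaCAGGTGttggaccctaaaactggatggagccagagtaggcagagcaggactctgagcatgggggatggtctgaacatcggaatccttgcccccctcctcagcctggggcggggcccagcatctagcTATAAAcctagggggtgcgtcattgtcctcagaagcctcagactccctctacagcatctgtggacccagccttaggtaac
Tnni1: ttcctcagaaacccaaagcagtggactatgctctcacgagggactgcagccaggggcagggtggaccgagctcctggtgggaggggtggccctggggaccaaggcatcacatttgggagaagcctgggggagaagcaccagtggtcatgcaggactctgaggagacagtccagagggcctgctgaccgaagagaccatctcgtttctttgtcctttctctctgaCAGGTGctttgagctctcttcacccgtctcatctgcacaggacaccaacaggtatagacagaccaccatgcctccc
Tnni2: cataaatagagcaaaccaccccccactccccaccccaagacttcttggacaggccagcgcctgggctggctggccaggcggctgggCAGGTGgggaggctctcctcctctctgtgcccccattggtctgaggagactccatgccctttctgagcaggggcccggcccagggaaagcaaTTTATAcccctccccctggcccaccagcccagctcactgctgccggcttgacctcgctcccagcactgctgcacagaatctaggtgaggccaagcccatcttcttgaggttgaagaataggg
Tnnc2: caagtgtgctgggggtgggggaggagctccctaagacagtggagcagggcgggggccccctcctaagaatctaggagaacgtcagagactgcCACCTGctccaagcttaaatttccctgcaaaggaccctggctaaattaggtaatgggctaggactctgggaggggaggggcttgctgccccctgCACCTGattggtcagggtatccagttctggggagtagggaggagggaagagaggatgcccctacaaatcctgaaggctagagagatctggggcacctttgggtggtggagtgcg

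The RefSeq promoter table used here matched 8 of the 10 genes, in 11 entries, the others being Tnnc1 and Tnnt3. CACCTG, a form of the E-box that myogenic factors can bind, occurred once in the windows of Tnnt1, Tnni1 and Tnni2, once in 1 of the 2 Tnnt2 entries and in 2 places in the window of Tnnc2. It occurred in 18.8% of all 33469 promoters of the same length. TATAAA was found in the Tnnt1 and Tnni2 windows and in 14.2% of all promoters. Of the other motifs searched, CAGCTG (15.1% of all promoters) was in 1 of the 2 Tnnt2 entries and in the 3 Tpm3 entries. Of these Tpm3 entries, 2 overlap and hold the same CAGCTG site. CATTCC (14.2%) was in 1 Tnnt2 entry and in that of Tpm1. The MEF2 motif (1.87%) was in none of the 11. These are matches of letters. CACCTG and TATAAA were each found in at least 1 slow and 1 fast isoform. Among the slow and fast isoforms with a window, CAGCTG was in Tpm3 alone and CATTCC in Tpm1 alone.

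The deposited values are expression levels on a log2-like scale whose scale and centring are not stated. They ran between 5.28 and 14.25, and the median over all probe sets lay between 6.6628 and 6.6629 on every array. Spread between arrays was minute, with a median SD per probe set of 3.69e-06 in these units. A difference between arrays is therefore given in SD units and is not read as a fold change. Levels of different probe sets depend on how well their probes bind, and they are not ranked as amounts of transcript. In bulk muscle, fewer fibres of a type and less RNA per fibre cannot be told apart. For the tissue label, the 7 measured fast fibre markers had levels of 11.86 to 14.19, and the 7 measured slow fibre markers had 8.83 to 11.99. The 7 cardiac markers had 6.13 to 7.18, with a median of 6.56 near the array median. For the same reason, these levels describe the probe sets and give no proportion of fibre types.

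The slow isoforms varied from rat to rat far more than most transcripts on the array, and they varied together. Tnnt1 encodes slow skeletal troponin T and lies at chr1:78349035-78359394 (GRCr8). Its level was 9.9136, 9.9157, 9.8982 and 9.9007 in WPH rats 1 to 4, against 9.9091, 9.9042, 9.9114 and 9.9159 in AAM rats 1 to 4. WPH rats 1 and 2 and AAM rat 4 were high, WPH rats 3 and 4 were low, and the meals overlapped.

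Tnni1 encodes slow troponin I, the inhibitory subunit, and lies at chr13:49781529-49793385. Its probe set of higher level (1371339_at) had 9.931, 9.9314, 9.92 and 9.9176 in WPH rats 1 to 4, against 9.9241, 9.9219, 9.9276 and 9.9317 in AAM rats 1 to 4. The high and low rats were those of Tnnt1, and the meals overlapped again. Its other probe set (1386873_at) had 9.7488, 9.7493, 9.7363 and 9.7333 in WPH rats, against 9.7406, 9.7376, 9.7447 and 9.7509 in AAM rats, which is the same order of high and low rats. Tnnc1, the calcium sensor of slow and cardiac muscle at chr16:6408607-6412070, had 10.6449, 10.6445, 10.6302 and 10.6294 in WPH rats, against 10.6386, 10.6351, 10.6408 and 10.6464 in AAM rats. AAM rat 4 was highest and WPH rat 4 lowest.

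Tpm3, at chr2:177812534-177842661, is represented by its brightest probe set, 1376929_at. It had 9.276, 9.2762, 9.2656 and 9.2681 in WPH rats, against 9.2721, 9.2697, 9.2737 and 9.2768 in AAM rats. This is again the pattern of WPH rats 1 and 2 with AAM rat 4 at the top and WPH rats 3 and 4 at the bottom, with the meals overlapping.

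**Figure D1:**
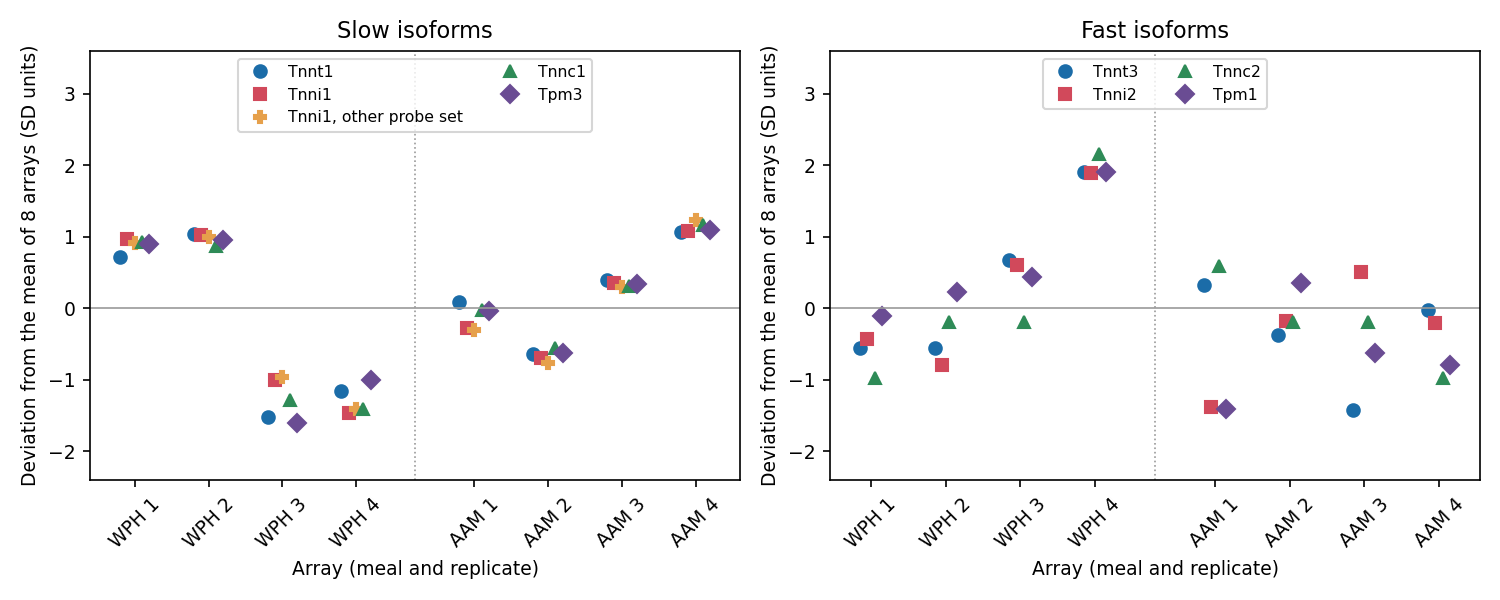
Deviation of each isoform from its own mean over the 8 arrays, in units of its SD (vertical axis), for every WPH and AAM rat (horizontal axis), with slow isoforms in the left panel and fast isoforms in the right. Points are single arrays; the slow isoforms lie close together in every rat, while all 4 fast isoforms are high in WPH rat 4 and scatter elsewhere.

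These spreads stood high among all transcripts. The SD over the 8 arrays was 0.00684 for Tnnt1, 0.00554 for Tnni1, 0.00662 for Tnnc1 and 0.00415 for Tpm3, between the 99.4 and 99.6 percentiles of all tested probe sets. Spread changes with level on this scale, so each was also set against probe sets of its own level. The SDs of the 4 slow isoforms were 182 to 344 times the median SD of the probe sets within their level range, which held 1579 probe sets from 9 to 10 and 694 from 10 to 11. Within their range, 98.2% to 99.1% of probe sets had a smaller SD. In each slow isoform the WPH rats spread more widely than the AAM rats, for example 0.00889 in WPH against 0.00487 in AAM for Tnnt1 and 0.00859 in WPH against 0.00477 in AAM for Tnnc1 (SD, n = 4 each). This difference in spread was not tested, and the slow isoforms repeat 1 pattern.

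**Figure D2:**
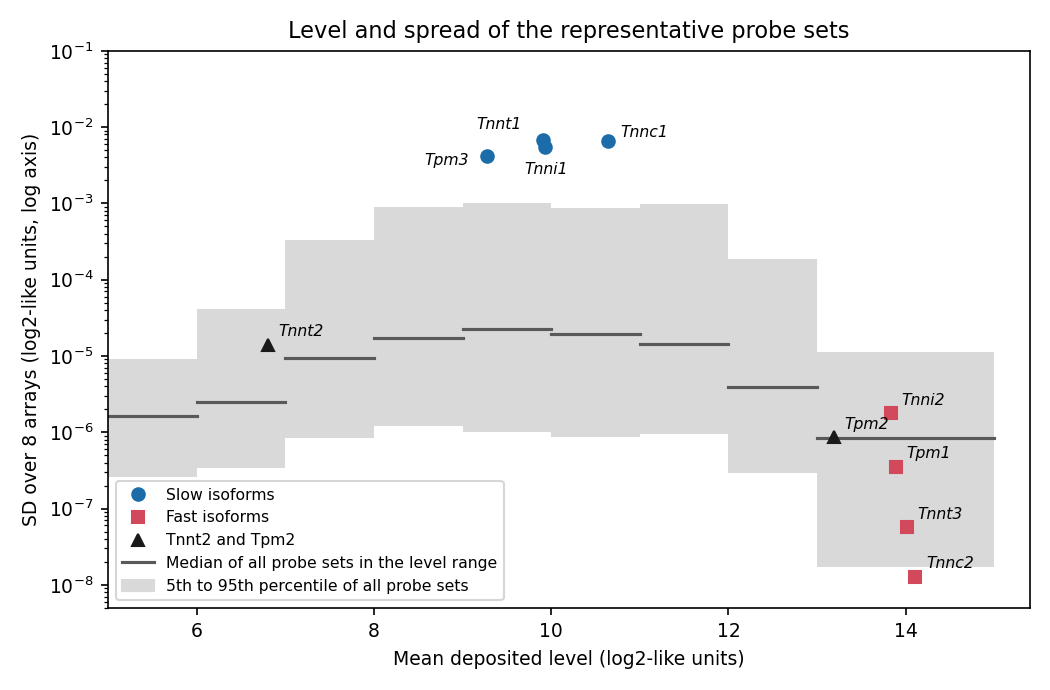
SD over the 8 arrays on a log axis (vertical) against mean deposited level (horizontal) for the representative probe set of each gene, with the median (line) and the 5th to 95th percentiles (grey) of all tested probe sets per level range. The 4 slow isoforms lie above the grey band at SDs of 0.00415 to 0.00684, and the fast isoforms lie at the bright end with SDs of 1.28e-08 to 1.77e-06.

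The fast isoforms had bright probe sets, and small spreads were general at their level. Tnnt3, fast troponin T at chr1:207082014-207099014, had a level of 14.01 and an SD of 5.69e-08. Tnni2, fast troponin I at chr1:206882358-207027034, had 13.83 and 1.77e-06. The Tnni2 promoter window shown above lies inside this span, so its annotated start is not the first base of the span. Tnnc2, fast troponin C at chr3:173932611-173935339, had 14.11 and 1.28e-08, and its 8 arrays held only 4 distinct values at the 8 decimals deposited. Tpm1, at chr8:76516654-76543661, had 13.89 and 3.53e-07. The 66 probe sets at levels from 13 to 15 had a median SD of 8.33e-07. Within that range, Tnni2 stood above 66.7% of probe sets by SD (2.12 times the median), Tpm1 above 30.3%, Tnnt3 above 13.6% and Tnnc2 above 3.03%. Tnnt3 held 7 distinct values, so rounding limits what the smallest of these spreads can show.

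In SD units from its own mean, Tnnt3 stood at -0.55, -0.55, 0.68 and 1.91 in WPH rats 1 to 4, against 0.33, -0.37, -1.43 and -0.02 in AAM rats 1 to 4. Tnni2 stood at -0.43, -0.80, 0.61 and 1.89 in WPH rats, against -1.38, -0.18, 0.50 and -0.21 in AAM rats. WPH rat 4 was the highest in each, and the meals overlapped. Tnnc2 stood at -0.98, -0.20, -0.20 and 2.15 in WPH rats, against 0.59, -0.20, -0.20 and -0.98 in AAM rats. Tpm1 (1368724_a_at) stood at -0.11, 0.23, 0.43 and 1.91 in WPH rats, against -1.41, 0.35, -0.62 and -0.79 in AAM rats. WPH rat 4 was again highest, and it was the highest array for 8 of the 31 member probe sets, against 13.4% of all tested probe sets.

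Co-variation was measured for all 45 pairs of the 10 genes over the 8 arrays, taking the brightest probe set of a gene, with exact two-sided permutation of the 40320 orders and Benjamini-Hochberg adjustment over the 45 pairs. All 6 slow pairs passed the threshold of 0.05. The closest was Tnnt1 with Tpm3, at r = 0.994 (adjusted exact p = 0.00112) and rho = 1.0 (adjusted exact p = 0.00223). The troponin C and troponin I of slow fibres, Tnnc1 and Tnni1, had r = 0.986 (adjusted exact p = 0.00112). The other slow pairs had r between 0.956 and 0.984, with adjusted exact p-values up to 0.00409, and rho passed for all 6 with adjusted exact p-values up to 0.00856.

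The slow pattern held inside each meal. The median r of the slow pairs was 0.98 over the 4 WPH arrays and 0.99 over the 4 AAM arrays. With values centred within each meal, r ran between 0.96 and 0.99. A permutation restricted to within meals has only 576 arrangements, and in it no slow pair passed after adjustment, with unadjusted exact p-values of 0.00174 to 0.0191 and adjusted ones of 0.0781 to 0.143. Leaving out the pair of arrays farthest from the median of the first gene left r at 0.96 to 1.0 (exact p 0.00139 to 0.00417).

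The fast isoforms did not pass. All 6 fast pairs had a positive r, between 0.516 for Tnnt3 with Tnni2 and 0.781 for Tnni2 with Tpm1 (unadjusted exact p = 0.0278, adjusted 0.139), and 0 of 6 passed. The median r of 0.59 rested on WPH rat 4, without which it was -0.09, with a range of -0.35 to 0.47. Over the 4 WPH arrays the median was 0.93, and over the 4 AAM arrays it was -0.36.

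Slow and fast isoforms ran in opposite directions by sign, but 0 of 16 pairs passed. All 16 slow-fast pairs had a negative r, from -0.747 for Tnni1 with Tnnc2 (unadjusted exact p = 0.0131, adjusted 0.0842) to -0.533 for Tpm1 with Tpm3, with a median of -0.61. The 4 slow isoforms repeat 1 profile and the 4 fast isoforms were all highest in WPH rat 4. These 16 values are therefore not 16 separate observations. The median was -0.80 over the WPH arrays and -0.24 over the AAM arrays, and -0.43 without WPH rat 4 (range -0.59 to -0.22). The opposite direction did not hold for every gene over the AAM arrays. There Tnni2 had r of 0.16 to 0.34 with the slow isoforms and Tnnt3 had -0.11 to 0.04, while Tnnc2 and Tpm1 had -0.72 to -0.37. The slow and fast partners of 1 subunit had r = -0.65 for Tnnt1 with Tnnt3, -0.592 for Tnni1 with Tnni2, -0.706 for Tnnc1 with Tnnc2 and -0.533 for Tpm3 with Tpm1.

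No pair of Tnnt2 or Tpm2 passed. Tnnt2, at chr13:49819123-49837125, had a level of 6.80 near the array median, and its r lay between 0.168 and 0.378 with the slow isoforms and between -0.755 and -0.056 with the fast ones. Tpm2, at chr5:62566712-62576066, had a level of 13.19 and r between -0.051 and 0.025 with the slow isoforms. With the fast isoforms, Tpm2 had r of 0.606 for Tpm1, 0.413 for Tnnt3, 0.214 for Tnnc2 and 0.043 for Tnni2. The largest value among the 17 pairs that involve either gene was r = -0.755 for Tnnt2 with Tnnc2 (unadjusted exact p = 0.0167, adjusted 0.0938).

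**Figure D3:**
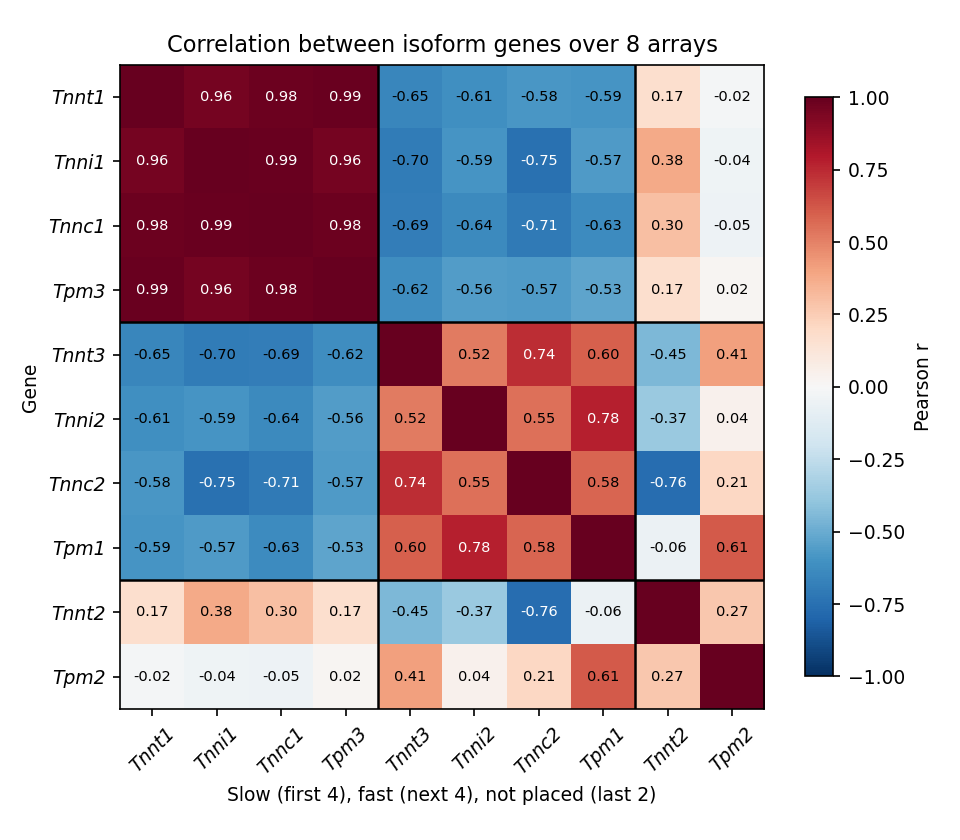
Pearson r over the 8 arrays between the representative probe sets of the 10 genes, with slow isoforms first, then fast isoforms, then Tnnt2 and Tpm2 on each axis. The slow block holds values of 0.96 to 0.99, the fast block 0.52 to 0.78, and every slow-fast cell is negative.

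Across all 14216 other named genes, the slow isoforms stood near the top of each other's lists by r. Tnni1, Tnnc1 and Tpm3 ranked 7, 2 and 1 for Tnnt1, and no slow isoform ranked below 7 for any other. The fast isoforms ranked between 161 and 2439 for each other. An r above 0.9 was rare, at 0.12% of the other genes for Tnnt1, 0.0914% for Tnni1 and Tnnc1, 0.106% for Tpm3 and 0.71% for Tnni2.

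The 3 genes most like each slow isoform were largely slow fibre genes. For Tnnt1 they were Tpm3, Tnnc1 and Myh7 (r = 0.981), the slow myosin heavy chain. For Tnni1 they were Tnnc1, Cdh1 (r = 0.982), an epithelial adhesion gene with a level of 6.1, and Myl3 (r = 0.979), a slow and ventricular myosin light chain. For Tnnc1 they were Atp2a2 (r = 0.986), the calcium pump of slow and cardiac muscle, Tnni1 and Tnnt1. For Tpm3 they were Tnnt1, Tnnc1 and Myh7 (r = 0.967). These r values are descriptions of 8 shared arrays, picked as the highest of 14216.

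Those genes had the same high and low rats. Myh7 had levels of 11.4939, 11.4949, 11.4795 and 11.4806 in WPH rats 1 to 4, against 11.4925, 11.4863, 11.4914 and 11.4967 in AAM rats 1 to 4. Atp2a2 had 11.5857, 11.5856, 11.5814 and 11.5811 in WPH rats, against 11.5838, 11.5832, 11.5854 and 11.5867 in AAM rats. AAM rat 4 was the highest and WPH rats 3 and 4 the lowest in each.

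The genes most like the fast isoforms were more mixed. Tnnt3 had Rnpepl1 (r = 0.984), Cplx2 (0.981) and Actn3 (0.962), the alpha-actinin of fast fibres. Tnni2 had Ost4 (0.981), Timm22 (0.98) and Commd7 (0.977). Tnnc2 had Socs2 (0.99), an inhibitor of cytokine signalling, with Clec7a (0.951) and Ttl (0.947). Tnnc2 held only 4 distinct values over a range of 4e-08, with WPH rat 4 at 2.15 SD. Rounding and this 1 array therefore limit what its r values can show. Tpm1 had Cilp2 (0.941), Casq1 (0.941), the calcium store protein of fast fibres, and Mroh8 (0.94). Actn3 and Casq1 were the fast fibre genes among these 12.

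The slow pattern did not extend to every slow fibre gene. Of 13 measured slow fibre genes outside the members, 3 had r above 0.9 with Tnnc1, namely Atp2a2 (0.99), Myl3 (0.98) and Myh7 (0.97). The median r of the 13 was 0.14, and 4 were negative. Csrp3 and Ankrd2, stress-responsive proteins of the sarcomere, had r of -0.48 and -0.40 with Tnnc1 and were highest in WPH rat 4. Of 15 measured fast fibre genes, 11 had a negative r with Tnnc1, and the median was -0.37. Over all other named genes the median was 0.02, with 5th to 95th percentiles of -0.62 to 0.62. Myl1, Myh2, Myh4 and Pfkm had a positive r, of 0.25, 0.22, 0.2 and 0.17. Of the 15, 9 were highest in WPH rat 4, where 13.4% of all tested probe sets were.

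Markers of other cells were set beside the isoforms, since a piece of muscle also holds connective tissue and vessels. Over all other named genes, the 5th to 95th percentiles of r were -0.77 to 0.76 with Tnni2 and -0.62 to 0.62 with Tnnc1. Tnni2 alone stood for the fast isoforms here, and 101 genes had r above 0.9 with it, against 9 for Tnnt3, 23 for Tnnc2 and 22 for Tpm1. The fast fibre markers themselves did not all follow Tnni2. Of the 7 measured, 5 had a positive r with it (median 0.39), while Myl1 had -0.76 and Myh4 -0.47. All 6 fibroblast markers had a positive r with Tnni2 (median 0.78), and all 6 had a negative r with Tnnc1 (median -0.59). Their mean z-score ran between -1.03 and 1.36 in WPH rats, against -0.53 and 0.61 in AAM rats, and was highest in WPH rat 4. All 7 smooth muscle markers had a positive r with Tnni2 (median 0.47), with mean z-scores of -0.75 to 0.62 in WPH rats and -0.65 to 0.48 in AAM rats. Des, 1 of the 7, had a level of 12.77, in the range of the fast fibre markers, so it cannot stand for other cells alone. Of 5 macrophage markers, 4 had a positive r with Tnni2 (median 0.41) and all 5 a negative r with Tnnc1 (median -0.5). Their mean z-score was also highest in WPH rat 4, at 0.97. Of 5 endothelium markers, 4 had a positive r with Tnni2 (median 0.27) and 3 a negative r with Tnnc1 (median -0.1). Array levels have no true 0, so no marker can be called absent, and the part of these cells in the isoform values was not tested.

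WPH against AAM was tested for every probe set by limma, with Benjamini-Hochberg adjustment over all 31042. No isoform passed the test between the meals: 0 of 31 member probe sets had an adjusted p below 0.05, against 0.0% of all probe sets. At an unadjusted p below 0.05 there were 0 of 31 members, against 3.58% of all, or 1110 probe sets. The limma p also depends on the absolute SD, because each SD is drawn toward a value shared by all probe sets. Tpm1 1371241_x_at, with an SD of 2.2e-07, had a standardized difference of 1.94 and a limma unadjusted p of 0.394. Probe sets of so small an SD could hardly reach a small p, so this count is not read as a result about the isoforms. After WPH, 20 of 31 members (64.5%) had the higher mean, against 47.3% of all probe sets, and their median standardized difference was 0.21 against -0.04. These shares depend on the centring. The median level of an array was 1.17e-05 higher after WPH on average, more than most probe sets vary, and with each array centred on its median 3 of 31 members (9.68%) were higher, against 9.01% of all. The standardized difference is the WPH mean minus the AAM mean in units of the pooled SD of the meals, and its 95% interval uses the noncentral t with 6 degrees of freedom.

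The representative slow isoforms all had a lower mean after WPH by less than their spread. Tnnt1 averaged 9.907 ± 0.00889 in WPH rats and 9.9102 ± 0.00487 in AAM rats (SD, n = 4 each), a standardized difference of -0.44 (95% interval -1.83 to 0.99, limma unadjusted p = 0.541). Tnni1 had -0.22 (-1.60 to 1.18) with each of its 2 probe sets. Tnnc1 had -0.43 (-1.81 to 1.0), and Tpm3 had -0.36 (-1.75 to 1.05). The signs of Tnni1 and Tpm3 turned when single arrays were left out, Tnni1 to 0.22 without WPH rat 4 and Tpm3 to 0.09 without WPH rat 3. Tnnt1 was -0.94 without WPH rat 2 and -0.03 without WPH rat 3, and Tnnc1 was -0.84 without WPH rat 1 and -0.05 without WPH rat 4.

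The representative fast isoforms all had a higher mean after WPH as deposited and a lower one with each array centred on its median, and none passed. The standardized difference was 0.75 for Tnnt3 (-0.72 to 2.17), 0.62 for Tnni2 (-0.83 to 2.03) and 0.37 for Tnnc2 (-1.05 to 1.76). The other probe set of Tnnt3 (1397499_at) had 1.41 (-0.22 to 2.96, limma unadjusted p = 0.0785). Leaving out WPH rat 4 turned Tnnc2 to -0.46 and left Tnnt3 at 0.32 and Tnni2 at 0.14. The highest values without 1 array were 1.08 for Tnnt3 and 1.06 for Tnni2, each without WPH rat 2.

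All 7 probe sets of Tpm1 were higher after WPH as deposited, with a median standardized difference of 1.52, and 1 of 7 was higher with each array centred on its median. These probe sets share 1 gene, so they are not separate observations. The representative one had 1.52 (-0.15 to 3.10, limma unadjusted p = 0.285). In 1371241_x_at and 1371240_at the 4 WPH rats lay above the 4 AAM rats, with standardized differences of 1.94 (0.14 to 3.65) and 1.56 (-0.12 to 3.14). They were 2 of 31 members with all WPH rats above all AAM rats, against 1.08% of all probe sets, and no member had the meals apart the other way. In either direction the meals did not overlap for 2.23% of all probe sets. The ranges of 1371241_x_at and 1371240_at over the 8 arrays were only 7e-07 and 1.98e-06. Both are smaller than the 1.17e-05 by which the array median was higher after WPH on average. 1371241_x_at held 7 distinct values at the decimals deposited, and 1371240_at had a level of 6.87, near the array median. For 1371241_x_at the deviations were 0.29, 0.97, -0.30 and 1.83 SD in WPH rats 1 to 4, against -0.44, -0.57, -0.44 and -1.35 SD in AAM rats. The exact p of 0.0286 for each is the smallest that 35 splits can give, and the limma unadjusted p-values were 0.394 and 0.136.

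Tpm2 and Tnnt2 also had higher means after WPH as deposited, and their representative probe sets had lower ones with median centring. The brighter Tpm2 probe set had 1.2 (-0.37 to 2.7) and the other 0.45, and the Tnnt2 probe sets had 0.42 and 0.05. Without 1 array, Tpm2 ran between 0.91 and 1.8, and Tnnt2 between 0.15 without WPH rat 1 and 1.53 without WPH rat 4. The smallest unadjusted p of any member, 0.0506, belonged to a Tpm3 probe set of level 7.51 (1387617_at), at 1.62 (-0.08 to 3.22).

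**Figure D4:**
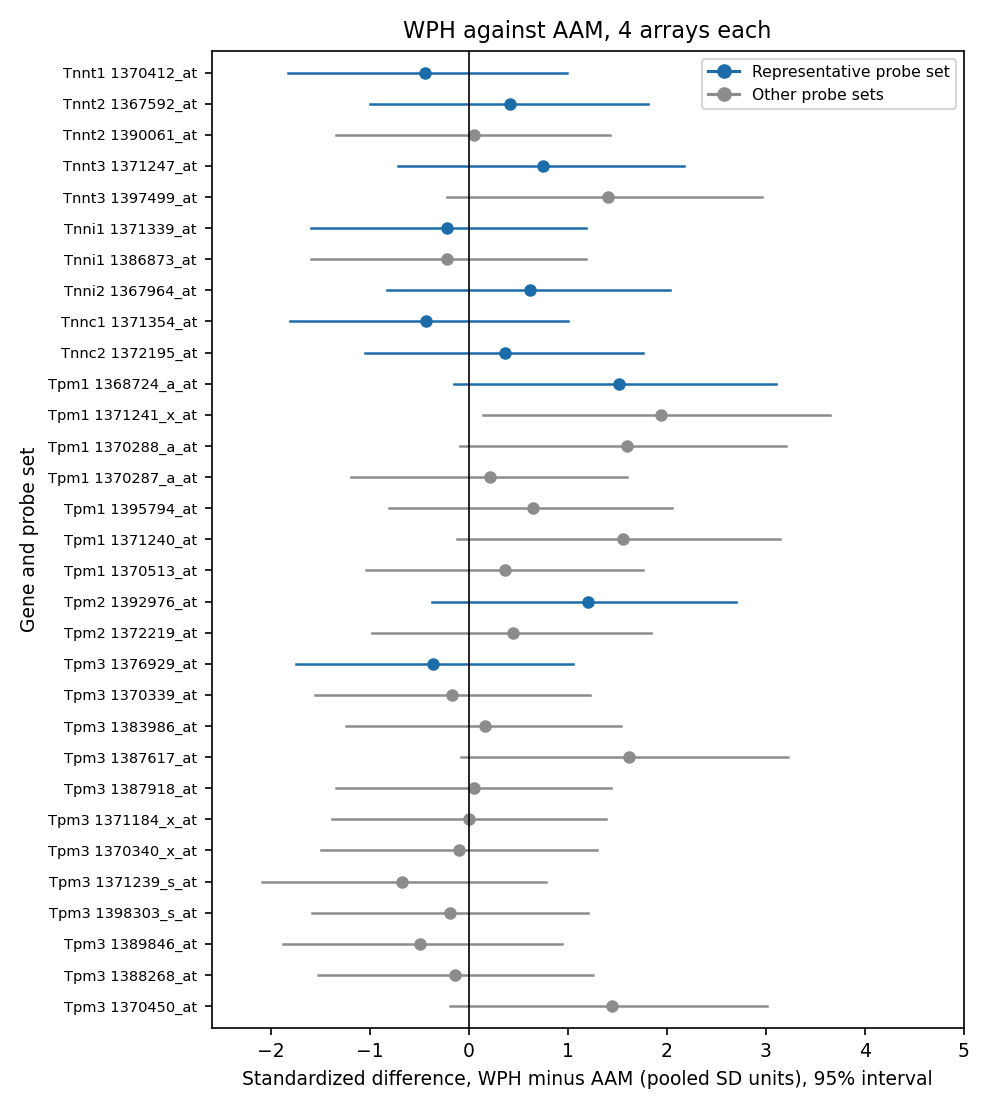
Standardized difference, WPH minus AAM in pooled SD units (horizontal axis), with its 95% interval for each of the 31 probe sets (vertical axis, by gene), from 4 WPH and 4 AAM arrays. The representative probe sets of Tnnt1, Tnni1, Tnnc1 and Tpm3 lie below 0 and all 7 Tpm1 probe sets above it as deposited, where 1 of 7 is above it with each array centred on its median; only 1 interval, for 1371241_x_at, leaves out 0, with no adjustment for 31 probe sets.

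Slow minus fast isoform differences within each rat asked whether the meals shifted the balance of a subunit, and none passed the exact two-sided test over the 35 splits. Tnnt1 minus Tnnt3 averaged -4.105 ± 0.00889 in WPH rats and -4.1019 ± 0.00487 in AAM rats (SD, n = 4 each, exact p = 0.571). The exact p was 0.686 for Tnni1 minus Tnni2, 0.543 for Tnnc1 minus Tnnc2 and 0.629 for Tpm3 minus Tpm1. The SD of the slow partner was 3130 to 517000 times that of the fast one, so as deposited these differences carry the slow isoform alone. With each probe set first divided by its SD, WPH minus AAM was -1.2 for the troponin T pair (exact p = 0.371), -0.87 for troponin I (0.543), -0.84 for troponin C (0.571) and -1.62 for tropomyosin (0.2). WPH rats 3 and 4 had the 2 lowest scaled differences in each pair, and WPH rats 1 and 2 lay above 0.

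The 12 probe sets of Tpm3 did not share 1 pattern. Only 1376929_at followed the slow isoforms, with r = 0.98 with Tnnc1 over the 8 arrays (adjusted exact p = 0.00476 over 24 tests, rho = 0.95, adjusted exact p = 0.0274). The other 11 had r between -0.26 and 0.6 with Tnnc1, and a median of -0.08. Instead, 7 of the 12 were highest in AAM rat 3, which was the highest array for 16.0% of all tested probe sets. Most of these 7, and most of the 12, had levels of 5.97 to 7.0, near or below the array median. The SDs of such dim probe sets were 2.75e-06 to 2.28e-05, against 0.00415 for 1376929_at. How much Tpm3 transcript they report was not tested.

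Tpm4, a tropomyosin of the cytoskeleton, was set beside them after values had been seen. Its level was 9.844, 9.8442, 9.8444 and 9.8444 in WPH rats 1 to 4, against 9.844, 9.8442, 9.8448 and 9.8441 in AAM rats 1 to 4, with AAM rat 3 highest. The Tpm3 probe set 1370339_at had 9.1842, 9.1844, 9.1847 and 9.1845 in WPH rats, against 9.1844, 9.1843, 9.1852 and 9.1842 in AAM rats. AAM rat 3 was the highest here too. Its r with Tpm4 was 0.95 (adjusted exact p = 0.0107), with rho = 0.83 (adjusted exact p = 0.168), and 0.85 without AAM rat 3. A further Tpm3 probe set, 1383986_at, had r = 0.95 (adjusted exact p = 0.0143), rho = 0.81 (adjusted exact p = 0.168), and 0.83 without that rat. Without the pair of arrays farthest from the median of Tpm4, r was 0.93 and 0.83. The correlation by rank did not pass for either.

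**Figure D5:**
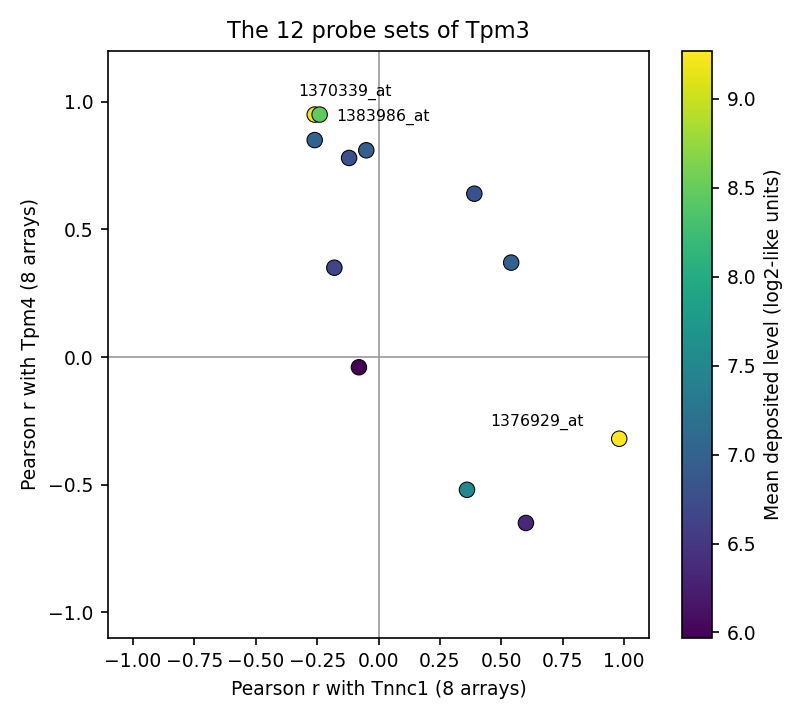
Each point is 1 of the 12 Tpm3 probe sets, placed by its Pearson r with Tnnc1 (horizontal axis) and with Tpm4 (vertical axis) over the 8 arrays and coloured by mean deposited level. The representative probe set 1376929_at lies alone at r = 0.98 with Tnnc1, and 1370339_at and 1383986_at lie at r = 0.95 with Tpm4.

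Troponin genes lie in pairs along the genome, and 3 neighbouring pairs could be compared on GRCr8. Tnni3, the cardiac troponin I at chr1:78342571-78346255, ends 2779 bases from Tnnt1. Its level of 6.47 was low, and its r with Tnnt1 was 0.90 (exact p = 0.00474, adjusted over the 3 pairs 0.0142), with rho = 0.69 (exact p = 0.0694). Without the pair of arrays farthest from the median, r was 0.90 (exact p = 0.0333). The pair Tnni2 and Tnnt3, 54979 bases apart, had r = 0.52 (exact p = 0.185), and Tnni1 and Tnnt2, 25737 bases apart, had r = 0.38 (exact p = 0.345). Tnni3 also had r = 0.91 with Tnnc1 on chromosome 16. Tnnt1 and Tnnc1 themselves had r = 0.984, so this value cannot tell whether lying next to Tnnt1 matters, which was not tested. The correlation of Tnni3 with Tnnt1 did not pass by rank.

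Other genes of the thin filament and of fibre type did not pass the test of the meals either, and their signs also depended on the centring. Of 14 measured thin filament genes outside the members, 8 had a higher and 6 a lower mean after WPH (5 higher with median centring), and 0 passed, with Xirp1, an actin-binding repeat protein, at 0.97, Klhl41 at 0.75 and Lmod3, a nucleator of thin filaments, at -0.68. Of 15 fast fibre genes, 12 had a higher mean (5 with median centring). The smallest limma p of these was that of Ampd1, the muscle AMP deaminase, at 1.91 (limma unadjusted p = 0.0278). Next by p, though not by size, came Pvalb, the calcium buffer parvalbumin, at 1.41 and Myoz3 at 1.23. Of 13 slow fibre genes, 10 had a higher mean (7 with median centring), led by Smpx at 1.35, Csrp3 at 1.15 and Ankrd2 at 1.11, while Myh7, Myl3 and Atp2a2 were at -0.68, -0.46 and -0.62 beside the slow isoforms.

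Of 22 fibre type regulators, 14 had a higher mean (11 with median centring), with Mef2c, a transcription factor of muscle genes, at 2.40 (0.43 to 4.26, limma unadjusted p = 0.0106), Nfatc4 at -1.27 and Myod1 at 1.13. Of 15 splicing regulators, which choose the exons of troponin T and tropomyosin transcripts, 5 had a higher and 10 a lower mean (2 higher with median centring), with Rbfox2 at -1.33, Celf1 at -0.87 and Rbfox1 at 0.70. The adjusted p was 1.0 for each gene named from these lists. The medians of the 5 lists lay between -0.10 and 0.73, where that of all named genes was -0.06.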

How the data were processed

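The authors deposited 1 log2-like level for each probe set of each array, and all 8 columns matched 1 rat each by their labels. The submitters' processing notes name R 2.7.2. Background correction, normalization and probe summary are steps not given in the sources used here, and no scanner file was used. Of 31099 probe sets, 57 controls were left out and 31042 tested; 20826 had 1 symbol, 436 several and 9780 were unnamed here. The brightest probe set (highest mean) stood for its gene.

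WPH (n = 4) and AAM (n = 4) were read from the treatment labels and compared with lmFit and eBayes of limma 3.58.1, run in R 4.3.3 (two-sided, Benjamini-Hochberg, threshold 0.05). Correlations, exact permutation tests and motif searches used Python 3.11.15 and scipy 1.17.1. The tests were tried on simulated data. No batch was entered. The number of arrays limits the precision.

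The members, the lists and the alternatives were chosen with earlier results of these data known. Named genes were all members, the 3 genes of highest r with each slow or fast isoform, and the 3 of smallest p in each list; Tpm4 and Tnni3 were singled out after their values were seen. Alternatives were other scalings, centrings, filters, priors, weights, probe set summaries, the replicate block and leaving out arrays.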

Additional observations from a re-analysis of the deposited data

Results flagged for a closer look

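In 7 of 70 groups of 4 rats, the highest or lowest rat stood apart from the other 3, with a gap that took more of the group's whole range than Dixon's 95% critical value. Chance flags about 3.5 of 70. The share of the range taken by the gap was 0.962 for Tpm1 1370288_a_at, high in WPH replicate 4, and 0.849 for Tnnt2 1367592_at, low in the same rat. It was 0.839 for Tpm2 1372219_at, low in WPH replicate 2, and 0.873 for Tpm3 1387918_at, low in WPH replicate 1. It was 0.885 for Tpm3 1370339_at and 0.899 for Tpm3 1383986_at, each high in AAM replicate 3, and 0.85 for Tpm1 1371241_x_at, low in AAM replicate 4. The 2 Tpm3 probe sets high in AAM replicate 3 are those with the highest r with Tpm4.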

How the results depend on the processing

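No alternative made a call between the meals: 0 members passed in any setting, and 0 probe sets of all passed. Centring each array on its median turned Tnnt2 to -0.19, Tnnt3 to -0.52, Tnni2 to -0.47, Tnnc2 to -0.52, Tpm1 to -0.50 and Tpm2 to -0.47; it moves arrays by more than these genes vary, which by its construction makes them move together, with 6 of 6 fast pairs called at a median r of 1.0. Without AAM replicate 3 and WPH replicate 4 together, Tnnt3 was -0.21, Tnnc2 -0.41, and Tnni1, like Tnni1 minus Tnni2, 0.28. Leaving out 1 array at a time gave -0.61 to 0.22 for Tnni1 and for Tnni1 minus Tnni2, with positive values without AAM replicate 4 (0.08), WPH replicate 3 (0.06) or WPH replicate 4 (0.22). It gave -0.46 to 0.79 for Tnnc2, and -0.77 to 0.09 for Tpm3 and for Tpm3 minus Tpm1, positive without WPH replicate 3. The cause was not tested.

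The 6 slow pairs passed without any 1 array; centred within each meal, 0 passed, with 576 arrangements to permute. The median r of the fast pairs was -0.09 to 0.78 without 1 array (-0.09 without WPH replicate 4, 0.78 without AAM replicate 1), 0.38 by Spearman, 0.28 with the mean of all probe sets, 0.03 without AAM replicate 3 and WPH replicate 4, and 0.11 without the 2 farthest arrays. That of the slow-fast pairs was -0.70 to -0.43 without 1 array, -0.42 with median centring, -0.50 without AAM replicate 3 and WPH replicate 4, and -0.49 without the 2 farthest arrays.

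Whether the replicate numbers pair the rats was not tested. Same-numbered rats' deviations had r of 0.157, 0.134, 0.064 and -0.071, and numbers 1, 2 and 3 but not 4 correlated best with their own. With the replicate block, 0 of 31042 probe sets passed, and the slow-fast median r was -0.77. The isoform differences with the block were -0.24, -0.11, -0.23 and -0.20 for troponin T, I, C and tropomyosin. Their unit is the SD of the differences between same-numbered rats and not the pooled SD, so their size is not compared with that without the block. In units of the SD left after the block, Tpm2 moved most among the genes, to 4.51 against 1.2 without it (adjusted p = 1.0), and the others lay between -0.34 and 1.51. Quantile normalization left 2705 probe sets constant, 9 members among them, so it gave no value for the fast isoforms. Unadjusted p-values below 0.05 numbered 172 with median centring, 363 with quantile normalization and 1367 with the replicate block, against 1110 as deposited.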
